A study of Mus musculus with 14 samples.

Results

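The change in liver gene expression from 3 wk to 4 wk of age was examined in female mice. No array compared these ages directly. Both were hybridized against liver of 8 wk females (F8), so the 4 wk over 3 wk ratio (F4/F3) was obtained for each probe as F8/F3 minus F8/F4 on the log2 scale. It rests on 4 of the 14 arrays of the study, 2 of F8/F3 and 2 of F8/F4, all scanned on the same day. The 3 wk group (F3), the 4 wk group (F4) and F8 were untreated CD-1 females, each measured as 2 pools of liver RNA, with 5 mice in a 3 wk pool and 6 mice in a 4 wk or 8 wk pool. The pups came with surrogate mothers from a commercial breeder. Pools of the same number were subtracted from each other, which gave 2 values of F4/F3 for every gene, called replicate 1 and replicate 2. The same subtraction over 8 wk males (M8), from 4 other arrays, gave 2 values of M4/M3 as a comparison in separate mice.

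Mouse pups are weaned at about 3 wk, when milk, which is rich in fat, gives way to solid food, which is rich in carbohydrate. The liver is still growing at this age, its blood-forming activity has largely ended, and its adult sex differences, which depend on the pituitary pattern of growth hormone secretion, are not yet complete. Growth hormone acts on hepatocytes through the transcription factor STAT5 and, in females, through the repressor Cux2. Cytochrome P450 enzymes and sulfotransferases, which modify steroids and foreign compounds, make up much of the adult sex difference.

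A probe was tested where F3, F4 or both passed, on both arrays of that age, the scanning software's criterion for a spot brighter than its surroundings, called well above background. This held for 26176 probes, which included 14809 named genes when the brightest probe was taken for each. In either channel of the 4 female arrays, 67.0% to 71.3% of spots were well above background, and the number of arrays limits the precision. The 10 hepatocyte markers tested had a log2 F4/F3 from -0.10 to 0.09, with a median of 0.01. On the 6 arrays of males against females, Xist was lower in males (log2 ratio -3.55 to -2.74) and the Y-linked Ddx3y was higher in males (5.80 to 7.24), as the dye labels state.

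The change across this week was small for most genes and large for a few. For 95.6% of the 14809 genes the mean change was within 1.5-fold. Their median log2 F4/F3 was 0.00, which is largely set by the normalization, since each array had a median log2 ratio of 0. On the log2 scale the replicates had an SD of 0.23 over all genes. Over genes, which are not independent replicates, the values of the replicates had a correlation of 0.50, and of 0.63 in the 7404 brighter genes. With limma, a linear model that shrinks each variance towards a common value, 0 genes (0% of those tested) had an adjusted p below 0.05 and a change over 1.5-fold. The smallest adjusted p was 0.144, while 2613 genes had an unadjusted p below 0.05, 1234 of them higher and 1379 lower at 4 wk.

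The number of calls depended on the variance model. When the common value was allowed to follow signal intensity, 176 genes were called in all, 69 of them up (0.466% of those tested) and the rest down (0.723%). These are referred to below as called with the intensity trend, and in the fit without it their adjusted p was at most 0.185. Choosing this fit to name genes followed after the counts had been seen. Leaving out female replicate 1 left 25 genes up and 28 down, and leaving out female replicate 2 left 0 in each direction. In these fits the single female value was assumed to vary like the male values, which gave the spread. The arrays are paired by pool, and a fit to all 14 arrays with no replicate block called 7 genes up and 16 down without the trend. With signals corrected by normexp and normalized by loess in place of the deposited ratios, the trend fit called 1 gene up and 3 down. This setting, which changed both steps, is called normexp below. A separate count, of genes over 1.5-fold in the same direction in both replicates, gave 121 genes higher (0.817%) and 214 lower (1.45%) with no test.

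**Figure D1:**
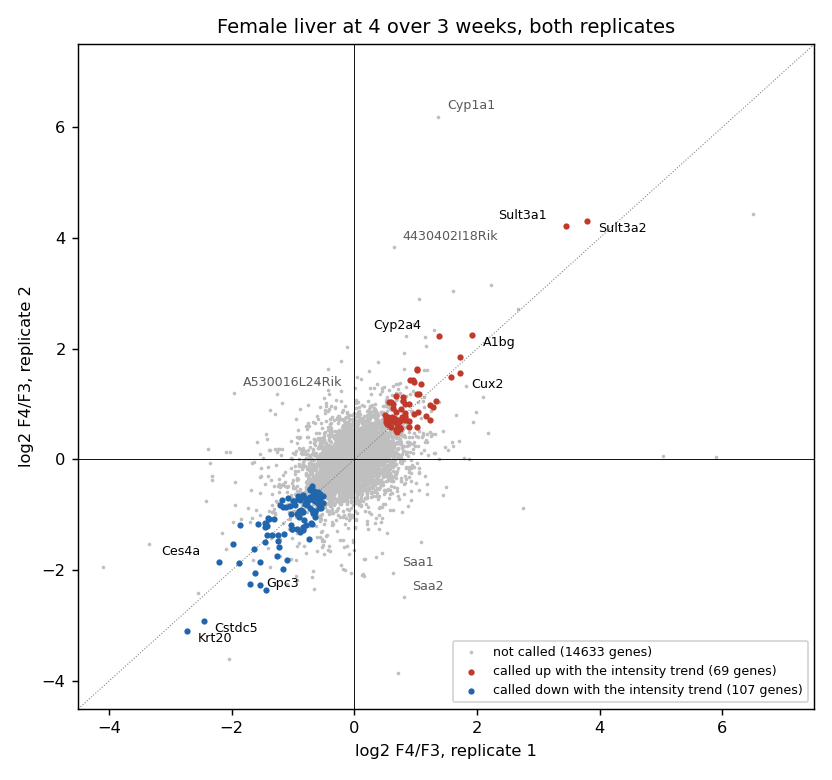
Log2 F4/F3 of each of the 14809 named genes in replicate 1 (horizontal axis) and replicate 2 (vertical axis), with the 69 genes called up with the intensity trend in red and those called down in blue. The sulfotransferases Sult3a1 and Sult3a2 lie far to the upper right in both replicates, whereas Cyp1a1, Saa1 and Saa2 lie far from the dotted line of equal values.

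Among the genes called up, those with the largest ratios at 4 wk were a pair of sulfotransferases, A1bg and Cyp2a4. Sult3a2, a sulfotransferase, had a log2 F4/F3 of 3.80 in replicate 1 and 4.30 in replicate 2, a mean of 4.05 ± 0.35 (SD, n = 2), or 16.5-fold. Its neighbour Sult3a1 had 3.46 and 4.21, a mean of 3.83 ± 0.53, or 14.2-fold. In both, the replicates lay close together compared with the size of the change (adjusted p = 0.0206 for each with the intensity trend and 0.144 without). The processed signal of Sult3a1 was 7796 and 3968 in the 3 wk pools and 59639 and 50876 in the 4 wk pools. Whether the probe of either gene also binds the other was not tested, so they may not be separate observations. On other arrays of the same pools, those leading through the males, replicate 1 was lower, at 1.18 for Sult3a1 and 1.61 for Sult3a2, and replicate 2 was 4.49 and 5.99. A1bg, which encodes a plasma glycoprotein of the immunoglobulin superfamily, had 1.93 and 2.25 (mean 2.09 ± 0.23). Cyp2a4, a steroid hydroxylase, had 1.37 and 2.22 (mean 1.80 ± 0.60). Cux2, the repressor that marks the adult female liver, had 1.73 and 1.56 (mean 1.64 ± 0.12, adjusted p = 0.0244 with the trend).

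In males most of these genes had values of the opposite sign. Log2 M4/M3 was -2.43 and -1.13 for Sult3a1, -2.22 and -0.67 for Sult3a2, -0.86 and -0.25 for A1bg and -1.38 and -0.68 for Cux2. Cyp2a4 was near 0 in males (-0.14 and 0.28). The difference of the changes between the sexes was tested for every gene, and 0 genes were called (smallest adjusted p 0.605, or 0.112 with the trend, and 1023 genes at an unadjusted p below 0.05). Calculated with the deposited errors and an unadjusted threshold of 0.0001, the difference was called in 21 genes. The male ratio crosses slides and scan days where the female ratio does not, and the part of this in the difference was not tested.

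A list of genes known to be higher in adult female liver was described as a whole. Of 18 tested, 5 were called up with the trend and 0 down, against 0.466% of all genes, and 9 were over 1.5-fold higher in both replicates, against 0.817%. The called members were Sult3a1, A1bg, Cyp2a4, Cyp3a16 and Nipal1. The Cyp3a16 probe also binds Cyp3a11, a gene with no adult sex difference, per the study's notes, so its value is uncertain as a measure of Cyp3a16. With the trend, the count of called members was 3 without female replicate 1, 9 with female values only, and 0 without female replicate 2, with no replicate block or with normexp. The median log2 F4/F3 of the list was 0.67 (0.69 and 0.79 by replicate), beside 0.00 over all genes, and the median log2 M4/M3 was -0.67 and -0.32. Several more members were higher at 4 wk without a call, such as the estrogen sulfotransferase Sult1e1 (1.14 and 1.62) and the cytochrome P450 Cyp2b13 (0.98 and 2.45). Not every member was. The bile acid sulfotransferase Sult2a1 had -2.31 and -0.29 in females and -4.34 and -1.96 in males, and Hao2, a peroxisomal hydroxyacid oxidase, stayed at -0.04 and 0.06.

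Of 17 genes known to be higher in adult male liver, 1 was called up and 0 down with the trend (0.466% and 0.723% of all genes), and the median in females was -0.19 (-0.28 and -0.10 by replicate). In both female replicates 10 members were below 0, and 2 members, Elovl3 and Nat8f5, were over 1.5-fold lower, against 1.45% of all genes. Nat8f5 had -0.67 and -2.01 in females and 1.34 and -0.39 in males. In males the median of the same genes was 0.92 and 0.46. Cyp4a12a, a fatty acid and arachidonic acid hydroxylase, had -0.54 and -1.46 in females against 2.47 and 1.57 in males. Elovl3, a fatty acid elongase, had a mean of -1.27 ± 0.38 (SD, n = 2) in females, and 1.05 and -0.33 in males. In both female replicates 5 members were above 0. Among these was Slc22a28, an organic anion transporter, which was called up in females (0.54 and 0.64) and was also higher in both male replicates (1.20 and 0.94).

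Growth hormone signalling genes other than Cux2 gave no call in either direction. Of the 18 members tested, 1 was called up and 0 down, beside 0.466% and 0.723% of all genes, and the median was 0.00 in replicate 1 and 0.12 in replicate 2. Igf1, the main growth factor made by the liver, had 0.09 and 0.08, and the growth hormone receptor Ghr had 0.02 and 0.03. Bcl6, a repressor that competes with STAT5 for its sites, had 1.66 and 0.81 (adjusted p = 0.0566 with the trend). Onecut1, the liver factor HNF6, had -0.62 and -0.77 in females and -0.84 and -0.76 in males (adjusted p = 0.0694).

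The other genes among the 12 largest called ratios, with Sult3a1, Sult3a2, A1bg, Cyp2a4 and Cux2, were in no list. Dct, the melanin pathway enzyme dopachrome tautomerase, had 1.72 and 1.85 in females and 1.33 and 0.61 in males. Methig1 had 1.03 and 1.63 in females and 1.78 and 1.56 in males. Ifit3b, an interferon induced protein, had 1.03 and 1.62. Plscr2, a phospholipid scramblase, had 1.09 and 1.37, and the succinate receptor Sucnr1 had 0.96 and 1.43. Both were higher in the males as well, with M4/M3 of 1.26 and 0.74 for Plscr2 and 1.45 and 1.12 for Sucnr1. Fam184b (1.57 and 1.49) and Ptger3, a prostaglandin E receptor (1.33 and 1.06), were the remaining ones. The interferon response list, which does not hold Ifit3b, had 0 of 20 called, beside 0.466% of all genes called up, and a median of 0.11 and 0.40 by replicate.

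**Figure D2:**
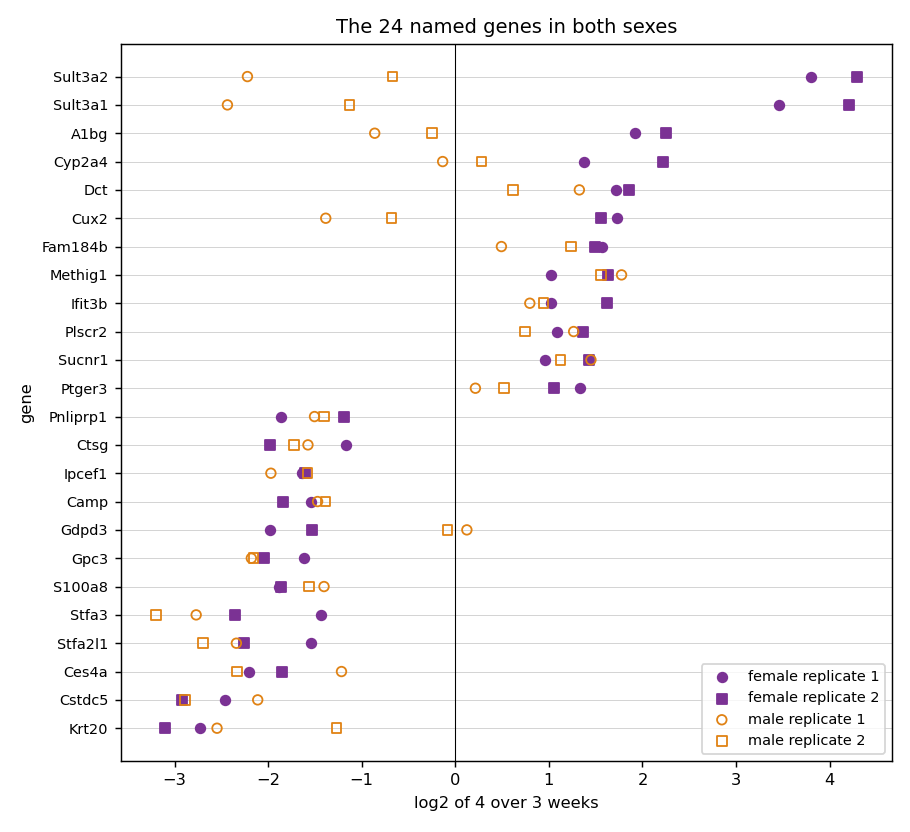
Log2 ratio of 4 wk over 3 wk of the 24 genes named by rule, 12 in each direction, in the 2 female replicates (filled) and the 2 male replicates (open). The male values lie on the opposite side of 0 from the female ones for Sult3a1, Sult3a2, A1bg and Cux2, and on the same side for most of the genes that were lower at 4 wk.

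Of the 34 lists, neutrophil markers had the lowest median. Neutrophils are short-lived granulocytes, white blood cells that store antimicrobial proteins. Of 11 neutrophil markers tested, 6 were called down with the trend and 0 up, against 0.723% of all genes, and the median log2 F4/F3 was -1.40 (-1.17 and -1.74 by replicate). S100a8, a subunit of calprotectin, had -1.89 and -1.86, a mean of -1.87 ± 0.02 (SD, n = 2), or 3.66-fold lower. Its processed signal was 2764 and 3786 at 3 wk and 870 and 845 at 4 wk. Its partner S100a9 had -1.26 and -1.74, the cathelicidin Camp had -1.55 and -1.85, and the granule protease cathepsin G (Ctsg) had -1.17 and -1.98. Lactoferrin (Ltf, -1.43 and -1.36) and Ngp (-1.45 and -1.14) were the other called members. Myeloperoxidase (Mpo) was as low (-1.10 and -2.26) but was not called (adjusted p = 0.0533), and neutrophil elastase (Elane) had 0.13 and -0.11.

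The summed processed signal of the 11 neutrophil markers was 11138 and 16736 in the 3 wk pools and 4710 and 4290 in the 4 wk pools. In bulk liver, fewer cells of a type and less RNA per cell cannot be told apart. In males the median M4/M3 of these genes was -1.47 and -1.41. The count of called members was 4 without female replicate 1, 0 without female replicate 2, 2 with the trend and no replicate block, and 1 with normexp, where the median was -0.94.

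Stefins, inhibitors of cysteine proteases that are abundant in mouse neutrophils, were examined after their values had been seen. Of 6 members tested, 4 were called down, beside 0.723% of all genes, from which nothing follows for a family picked by its values. They included Cstdc5 (-2.46 and -2.92), Stfa2l1 (-1.54 and -2.26) and Stfa3 (-1.44 and -2.35). The replicates of Cstdc4, which was not called, lay on opposite sides of 0 (-1.37 and 0.16). Genes of eosinophil granules were also looked at after the fact. Eosinophil peroxidase (Epx) had -1.70 and -2.24, and Ear1, an eosinophil-associated ribonuclease, had -1.46 and -1.50. Of the 6 eosinophil genes tested, 5 were called down, beside the same 0.723%. All 6 were below 0 in both replicates, beside 33.7% of all genes. This family too was picked by its values, so nothing follows from these counts. The ribonucleases are related copies, and whether their probes share targets was not tested. In males M4/M3 was -0.62 and -0.06 for Ear1, -0.40 and -1.02 for Epx and -1.09 and -1.36 for Ear6. The male replicates of Ear2 (-0.61 and 0.24) and Ear10 (-0.65 and 0.19) lay on opposite sides of 0.

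Among 14 erythroid, 14 T and NK cell, 8 B and plasma cell and 11 macrophage markers, 0 were called with the trend, beside 0.466% of all genes up and 0.723% down. The median by replicate was 0.18 and -0.12 for the erythroid, 0.06 and -0.07 for the T and NK cell, and 0.12 and -0.32 for the B and plasma cell markers, on opposite sides of 0 in each. It was 0.08 and 0.15 for the macrophage markers. The difference of these lists from the neutrophil markers was not tested. The 7 genes of MHC class II, which present antigen, were all above 0 on the mean, from 0.02 to 0.48, with 0 called.

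Genes of DNA replication were mostly lower at 4 wk. Of 29 tested, 26 were below 0 in both replicates, against 33.7% of all genes, 5 were called down with the trend, against 0.723% of all genes, and 0 up, and the median was -0.36 (-0.36 and -0.45 by replicate). Uhrf1, which carries DNA methylation through replication, had -1.03 and -1.17. The helicase subunits Mcm2 (-0.72 and -0.68), Mcm3 (-0.71 and -0.71) and Mcm6 (-0.56 and -0.63) had almost equal values in the replicates. Ccne1, the cyclin that starts S phase, had -0.64 and -0.68. The same list had a median M4/M3 of -0.63 and -0.44. With the trend, 0 members were called with normexp or with no replicate block.

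Of 35 genes of mitosis tested, 25 were below 0 in both replicates, against 33.7% of all genes, 0 were called, against 0.723% down, and the median was -0.20. In males their median was -0.67 and -0.23. The proliferation marker Mki67 had -0.14 and -0.27 across this week, beside an F8/F4 of -2.84 and -3.08 in the weeks that followed. F4/F3 and F8/F4 share the F4 pools, so their values are only set side by side.

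Because members of the replication list moved together, their promoters were searched for the letters bound by E2F factors, which switch on replication genes. The motif TTTCCCGC or TTTGGCGC, on either strand, was held by 8 of the 27 promoters of the list in the RefSeq table (29.6%) and by 1.56% of all 32851 promoters of that table. A promoter here spans 250 bases before to 50 bases after a start site in build GRCm38.p6, and 24 of the 29 genes had at least 1. The promoters of Mcm3 and Mcm6 are shown 5′ to 3′ because both genes were called and each holds the motif 2 times, marked in capitals.
Mcm3, chr1:20820263-20820562, minus strand: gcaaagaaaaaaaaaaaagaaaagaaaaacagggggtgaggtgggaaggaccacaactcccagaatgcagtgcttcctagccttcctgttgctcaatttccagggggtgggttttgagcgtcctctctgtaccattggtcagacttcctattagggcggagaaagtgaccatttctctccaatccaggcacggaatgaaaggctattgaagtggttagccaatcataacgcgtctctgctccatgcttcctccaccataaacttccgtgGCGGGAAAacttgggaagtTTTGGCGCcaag
Mcm6, chr1:128359656-128359955, minus strand: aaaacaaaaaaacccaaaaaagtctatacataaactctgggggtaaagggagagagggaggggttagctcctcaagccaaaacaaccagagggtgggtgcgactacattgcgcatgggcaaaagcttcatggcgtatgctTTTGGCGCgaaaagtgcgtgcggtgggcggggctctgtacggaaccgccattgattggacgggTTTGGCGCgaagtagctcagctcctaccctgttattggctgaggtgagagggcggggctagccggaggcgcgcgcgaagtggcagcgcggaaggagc
The motifs of Mcm3 begin at bases 270 and 289 of the window, and those of Mcm6 at bases 141 and 204. The promoters of Mcm2, Uhrf1 and Ccne1 do not hold these letters in the window, which says nothing of E2F at those genes.

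Growth genes of the fetal liver, many of them imprinted, also had a negative median. Of 15 tested, 3 were called down with the trend, against 0.723% of all genes, and 0 up, and the median was -0.56 (-0.36 and -0.78 by replicate). With the trend, the count was 2 without female replicate 1, 0 without female replicate 2 and 1 with no replicate block. Gpc3, a cell surface proteoglycan that restrains growth, had -1.62 and -2.05 in females and -2.18 and -2.15 in males. Mest had -0.84 and -0.95, and Igf2bp2, an RNA-binding protein, had -0.71 and -1.14. Dlk1 (-2.16 and -1.33) and Igf2, the fetal growth factor (-0.81 and -1.26), were as low without a call. With normexp the median of the list was -0.28 and 0 were called. The replicates of Afp, the main plasma protein of the fetus, lay far apart (0.16 and -2.11). Genes of collagens and matrix had a median of -0.26, with 19 of 24 below 0 in both replicates, against the same 33.7%, and 0 called.

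Of 18 clock genes tested, 1 was called up and 2 down, beside 0.466% and 0.723% of all genes. Per1 (-1.01 and -0.76) and Per2 (-0.87 and -0.90), the repressors of the negative limb, were called down, and Nr1d2, a nuclear receptor that represses Bmal1 transcription, was called up (0.98 and 1.41). The males had the same directions, with -0.76 and -0.85 for Per1 and -1.16 and -0.90 for Per2, and Nr1d2 was above 0 in both male replicates. Dbp had -0.02 and 0.07, although its F8/F4 was 3.00 and 2.91. The median of the list was 0.01. The time of day at which the mice were killed is not given in the sources used here.

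Motifs through which clock factors act were searched in the promoters of this list. The E-box CACGTG was held by 5 of 20 promoters (25%) and by 7.15% of all promoters, and the D-box TTATGNAA by 2 of 20 (10%) and by 3.38% of all. The upstream promoter of Per1 is shown because the gene was called and the window holds both, the E-box from base 85 and the D-box from base 227, in capitals.
Per1, chr11:69098699-69098998, plus strand: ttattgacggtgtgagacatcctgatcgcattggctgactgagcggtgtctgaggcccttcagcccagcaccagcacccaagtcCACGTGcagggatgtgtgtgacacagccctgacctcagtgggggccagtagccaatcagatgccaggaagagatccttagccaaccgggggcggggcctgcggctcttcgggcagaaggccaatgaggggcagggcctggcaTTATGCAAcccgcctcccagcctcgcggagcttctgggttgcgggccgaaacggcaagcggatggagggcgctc
The other promoter of Per1 and that of Nr1d2 hold neither.

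STAT5, through which growth hormone acts, binds TTCNNNGAA. These letters were held by 4 of 13 promoters of the adult female-biased list (30.8%) and by 8.30% of all promoters. The promoter of A1bg is shown because the gene was called and the match, from base 167, is in capitals.
A1bg, chr15:60921221-60921520, minus strand: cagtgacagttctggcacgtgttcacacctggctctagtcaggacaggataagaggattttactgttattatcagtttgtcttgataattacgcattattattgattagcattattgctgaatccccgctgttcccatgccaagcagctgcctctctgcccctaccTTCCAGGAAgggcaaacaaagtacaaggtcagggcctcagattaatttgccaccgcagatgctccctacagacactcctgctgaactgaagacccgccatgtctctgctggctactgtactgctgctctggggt
The window of Sult3a1 holds the letters 1 time, from base 142, and that of Sult3a2 does not. Aligned over 323 columns, the promoters of Sult3a1 and Sult3a2 had the same base in 48.6%.

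Counts of called genes in the metabolic lists stand beside 0.466% of all genes called up and 0.723% called down. The mitochondrial fatty acid oxidation and ketogenesis list had a median of -0.05 over 20 genes, all between -0.16 and 0.28, with 0 called. Cpt1a, which admits fatty acids to the mitochondrion, had 0.12 and 0.24. PPARalpha targets outside that pathway had a median of -0.07 over 29 genes with 0 called, and the hormone Fgf21 had -0.94 and -2.10 (adjusted p = 0.0573). The DR1 core, the repeat bound by PPARalpha, was held by 0 of 29 promoters of this list and by 0.0396% of all.

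Genes of lipid synthesis differed between the replicates. The median of the 21 fatty acid synthesis genes was -0.05 in replicate 1 and -0.37 in replicate 2, with 0 called. Fatty acid synthase (Fasn) had -0.26 and -0.71, beside -1.21 and -0.89 in males. The 24 cholesterol synthesis and uptake genes had 0.00 and -0.22, with 0 called, and -0.55 and -0.41 in males. The sterol regulatory element core TCACCCCA was held by 2 of 19 promoters of the cholesterol list (10.5%) and by 1.56% of all.

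Sugar handling had a median of -0.08, and 1 of 19 genes was called, Pfkfb3, a regulator of glycolysis, at -0.84 and -1.21. Among 14 gluconeogenesis genes 1 was called, G6pc, the glucose-6-phosphatase that releases glucose from the liver. It had -0.72 and -0.87 in females and 0.64 and 0.75 in males, so the sexes lay on opposite sides of 0. Amino acid breakdown and urea cycle genes had a median of 0.04 and 0.16 by replicate, and 1 of 32 was called, ornithine aminotransferase (Oat, 0.63 and 0.93). Among 21 bile acid genes, the export pump Abcc3 was called up (0.77 and 0.76), while Cyp7a1, the rate-limiting enzyme of bile acid synthesis, had -0.24 and -0.73.

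Lists of defence against stress and foreign compounds held 1 or 2 called genes each, except the acute phase list, beside the same shares of all genes. The xenobiotic list had a median of 0.20 over 28 genes, and 1 was called, Cyp2c55, at -0.69 and -1.17. Metallothionein Mt1, which binds zinc, was called up (0.76 and 0.91 in females, 1.33 and 1.84 in males), as was Zbtb16, a target of glucocorticoids (0.89 and 0.59). The list of glucocorticoid-responsive genes and metallothioneins that holds both had a median of 0.05 and -0.06 by replicate over 13 genes. Asparagine synthetase (Asns, -0.74 and -1.44) was the called member among 22 ER and heat shock stress genes (median -0.07 in replicate 1 and -0.31 in replicate 2). The iron importer Slc11a2 (-0.59 and -0.79) was the called member among 16 iron genes (median 0.00 and 0.18 by replicate). The acute phase list had a median of 0.07 in replicate 1 and -0.14 in replicate 2 over 20 genes, with 0 called.

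Counts for markers of other cells also stand beside 0.466% of all genes called up and 0.723% down. Stellate and mesenchymal cells (9 tested, median -0.05) and bile duct cells (10 tested, median -0.18) had 0 called. Of the 4 adipocyte markers tested 0 were called, but Cfd, the serine protease adipsin, had 5.89 in replicate 1 and 0.05 in replicate 2, while the other 3 lay between -0.30 and -0.15 on the mean. Sinusoidal endothelial cells had 1 of 10 called, the hyaluronan receptor Lyve1 (-0.56 and -0.68). Exocrine pancreas had 1 of 6 called, Pnliprp1, a lipase relative (-1.87 and -1.19 in females, -1.50 and -1.40 in males), while the other 5 lay between -0.13 and 0.03.

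**Figure D3:**
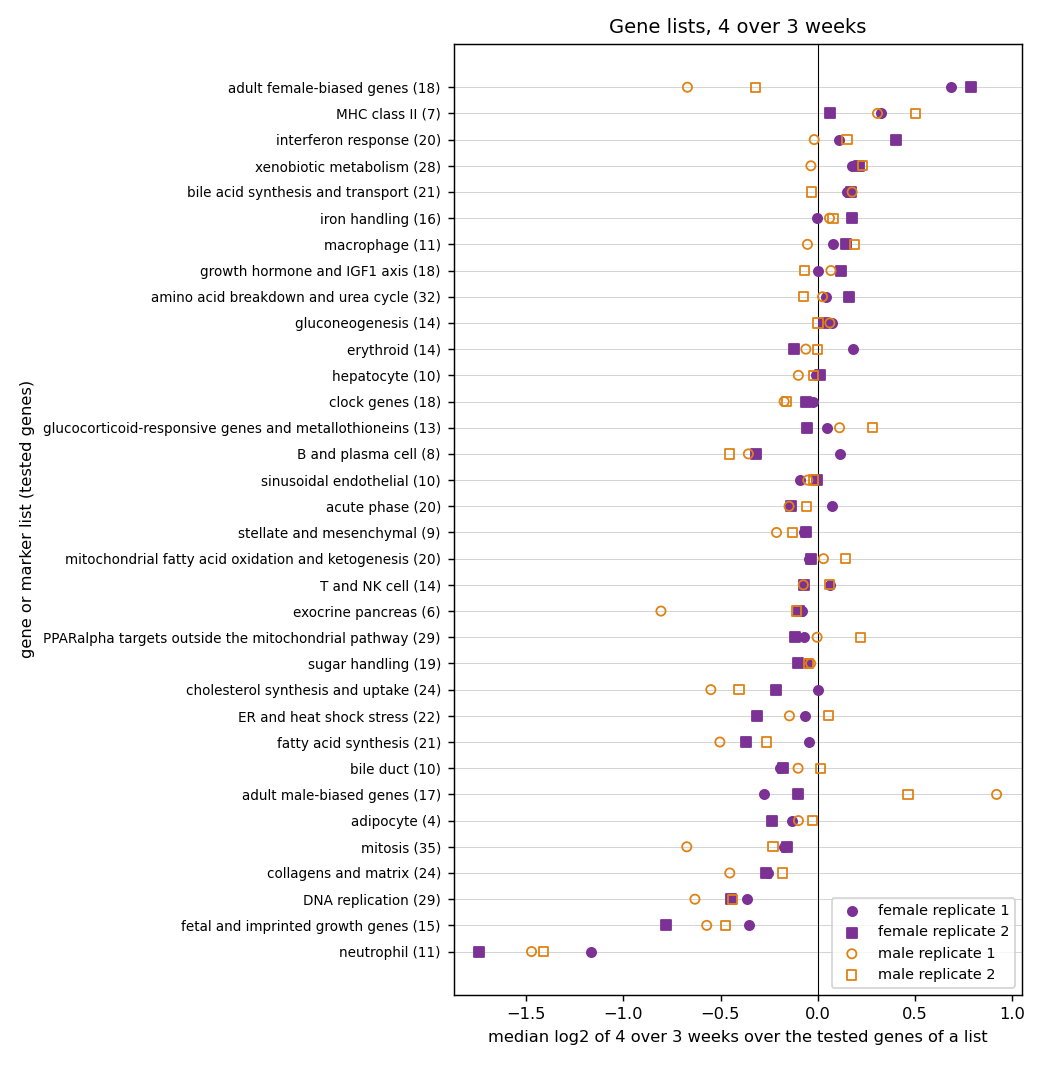
Median log2 ratio of 4 wk over 3 wk over the tested genes of each of 34 lists, by female replicate (filled) and male replicate (open), ordered by the female median. The neutrophil markers are lowest in both sexes, and the adult female-biased and male-biased lists lie on opposite sides of 0 in the 2 sexes.

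The remaining genes of the 12 with the largest negative ratios, beside the stefins, S100a8, Gpc3, Camp, Ctsg and Pnliprp1, belonged to no list. Krt20, an epithelial keratin, had -2.72 and -3.10, at a processed signal of 41.6 and 78.3 at 3 wk and of 11.4 and 10.8 at 4 wk. Through the male arrays its values were -1.19 and -1.12, in a range of signal where probes are dim. Ces4a, a carboxylesterase, had -2.20 and -1.85 in females and -1.22 and -2.34 in males. Ipcef1 had -1.64 and -1.61. Gdpd3, a phospholipid-cleaving enzyme, had -1.98 and -1.53 in females and 0.12 and -0.08 in males, and its F8/F4 was 1.47 and 3.54.

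The called genes were set beside the males and the later ages. Of the 69 genes called up, 55 were also above 0 in both male replicates, and of those called down, 98 were below 0 in both. Over all genes the shares were 55.4% of those higher in females and 50.3% of those lower. The male values entered the shared variance, so a gene was called more easily where its male replicates lay close together. The shares over all genes do not allow for this. Log2 M4/M3 had a median of 0.51 over the genes called up and -0.69 over those called down. From 4 wk to 8 wk, 11 of the 69 went further up by more than 1.5-fold, 6 came down by as much, and 52 stayed within 1.5-fold. Of the genes called down, 43 went further down, 9 came back up and 55 stayed within 1.5-fold. The shares of all tested genes with such later changes were not counted. F8/F4 shares the F4 pools with F4/F3, and an error in F4 enters the 2 ratios with opposite signs. These counts are therefore a description only.

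Single genes followed different courses. Sult3a1 and A1bg were near the 8 wk level at 4 wk, with F8/F4 of -0.42 and 0.51 for Sult3a1 and -0.11 and -0.09 for A1bg. S100a8 and Gpc3 had F8/F4 of -1.04 and -1.06, and of -0.91 and -1.04, and Nr1d2 had 2.43 and 1.75. Per1 had F8/F4 of 0.71 and 0.61, opposite in sign to its F4/F3.

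**Figure D4:**
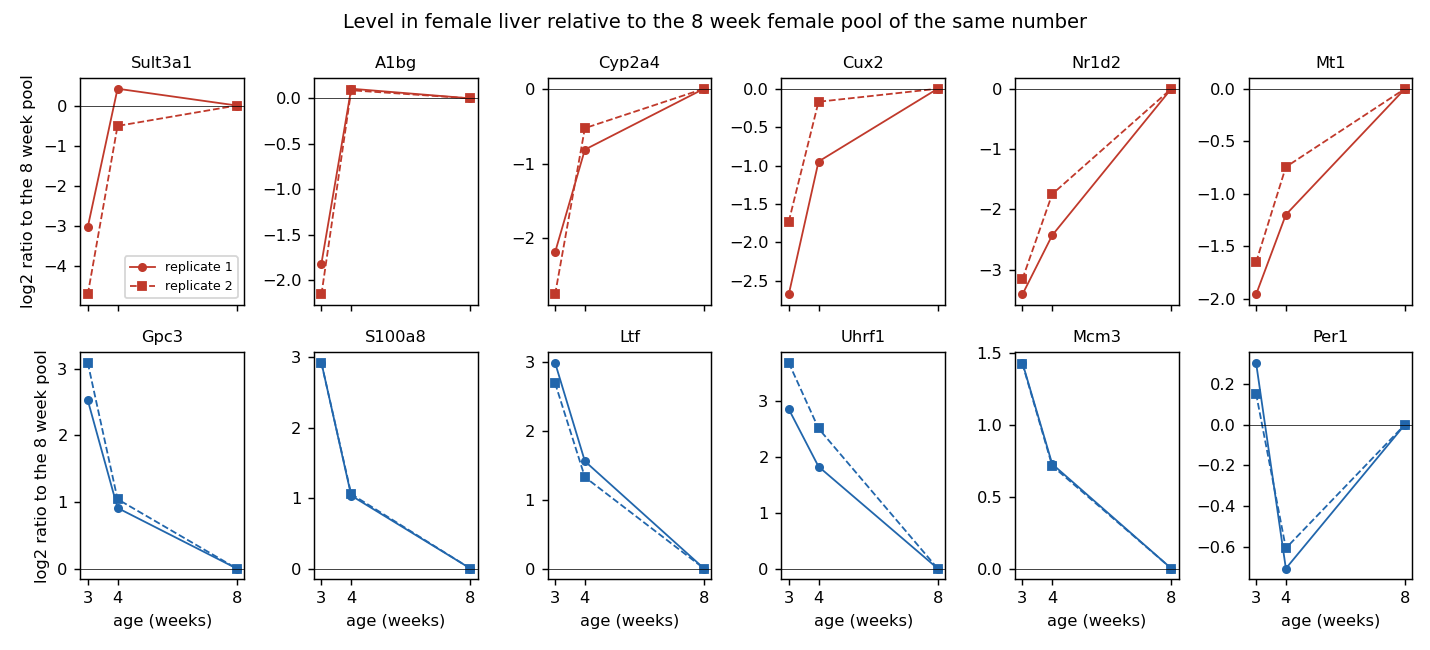
Log2 level of 12 genes in female liver at 3, 4 and 8 wk relative to the 8 wk pool of the same number (vertical axis, scaled for each gene), with replicate 1 solid and replicate 2 dashed. Sult3a1 and A1bg are near 0 from 4 wk, S100a8, Gpc3 and Uhrf1 go down at both steps, and Per1 is lowest at 4 wk.

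F4/F3 can also be obtained from the other 8 arrays that lead from F3 to F4 through males, as M4/M3 plus M3/F3 minus M4/F4. Both routes measure the same F3 and F4 pools on different arrays. The SD of the difference between routes was 0.32 in each replicate over all genes, and 0.099 and 0.090 in the brighter 7404. Sult3a1 and Sult3a2 differed far more between routes than these SDs. Sult3a1 had 3.46 and 4.21 through F8 and 1.18 and 4.49 through males. Sult3a2 had 3.80 and 4.30 through F8 and 1.61 and 5.99 through males. For the 12 genes whose replicates lay farthest apart among those with F3 and F4 above background on all 4 arrays, the routes gave like values for each replicate number in most cases. Saa2, an acute phase protein, had 0.80 and -2.49 through F8 and 0.93 and -2.26 through males. Cyp1a1, the enzyme induced by aryl hydrocarbons, had 1.37 and 6.19 through F8 and 1.37 and 5.80 through males. Afp had 0.16 and -2.11, and 0.20 and -2.18. The values of Ppp1r3g, a glycogen-targeting subunit, shifted by about 1 between routes (0.14 and -2.07 against -0.87 and -3.11).

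**Figure D5:**
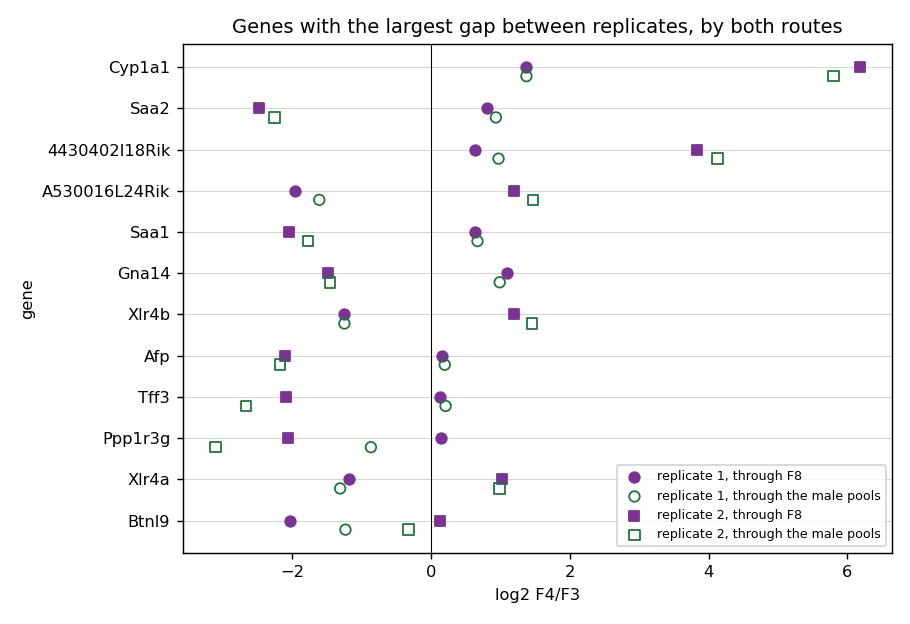
Log2 F4/F3 of the 12 genes with the largest gap between replicates among those above background at both ages, through F8 (filled) and through the male pools (open), with replicate 1 as circles and replicate 2 as squares. For Saa1, Saa2, Cyp1a1, Gna14 and Afp the routes give nearly equal values within a replicate, while the replicates are far apart.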

How the data were processed

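Female and male CD-1 liver RNA pools were compared on 2-colour Agilent arrays. The authors obtained the deposited log10 ratio of red over green with Agilent Feature Extraction 10.7.1.1 with the background subtracted and the dyes normalized by linear and LOWESS steps. The modelled error of each ratio is a deposited score. The deposited intensity of each spot was used for levels, flags of spots and the alternatives. The software's flags for signal well above background were used as given. Ratios were converted to log2 from the deposited log10 values and turned by the dye labels. Spots of a probe were averaged, non-uniform outliers were left out, and no spot was saturated. RefSeq accessions named 26055 of 39429 probes.

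In R 4.3.3 with limma 3.58.1, the per-replicate values of F4/F3 and M4/M3 were fitted with a coefficient for each sex and a shared variance, and Benjamini-Hochberg adjustment ran over all 26176 probes. Since the young pool carried the same dye, on the same slide, on both female arrays of a number, dye and slide cancel in F4/F3. The methods do not test F4/F3. Replicate numbers were taken to pair the arrays. The replicate deviations of F8/F3 and F8/F4 had r = 0.55 over genes, but these share F8, the dye order and the slide. That r therefore does not by itself show a pairing of pools. The 2 routes from F3 to F4 had r = 0.62 and 0.68 within a number and 0.40 and 0.42 across numbers, since both start from the same F3 and F4 pools. The pools are separate groups of mice, so p-values measure the spread between pools. The test was tried on simulated data.

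The named genes are the 12 with the largest mean change in each direction, among calls with the same sign in both replicates and F3 and F4 above background on all 4 arrays. As 0 genes were called, this was applied to the calls with the intensity trend. The 22 gene lists and 12 marker lists (626 genes, 585 tested) and the genes were chosen with earlier results of these data known. The E-box, E2F and STAT5 motifs, the stefins and the eosinophil genes were chosen after their values were seen. Alternatives, given at the end, changed the pairing, the samples, the normalization, the filter, the variance model and the threshold.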

Additional observations from a re-analysis of the deposited data

Results flagged for a closer look

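In 6 genes called with the intensity trend that were named or in a list, both female values lay on one side of 0 and both male values on the other. Log2 F4/F3 was 3.83 for Sult3a1, with M4/M3 of -2.43 and -1.13, and 4.05 for Sult3a2, with -2.22 and -0.67. It was 2.09 for A1bg (males -0.86 and -0.25), 1.64 for Cux2 (-1.38 and -0.68) and 0.69 for Nipal1 (-0.36 and -0.36). It was -0.80 for G6pc, whose male values were 0.64 and 0.75. The test of the difference between the sexes gave an unadjusted p of 0.000161 for G6pc to 0.000795 for Sult3a2 in limma, and an adjusted p of 0.605 for each, or 0.112 to 0.127 with the intensity trend. None passed. Over all called genes, 9 of those called up and 5 of those called down were opposite in both male replicates. Groups of 2 replicates were too small for a search for single outlying samples.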

How the results depend on the processing

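Calls are given as a percent of the genes tested. The share called up, called down and called for a sex difference was 0 with the filter on dim probes removed or made stricter (both ages well above background), with normexp and loess, and without the ratio threshold. They were also 0 up and 0 down with female values only, with single channels and with both routes. The replicate numbers pair the arrays. A fit to all 14 arrays with no replicate block, which changed the arrays as well as the block, called 7 (0.0473%) up, 16 (0.108%) down and 0 for a sex difference. Of the 16, 14 were also called with the trend. With the intensity trend, 69 (0.466%) were called up, 0.723% down and 0 for a sex difference. The error-weighted average with an unadjusted p below 0.0001 called 35 (0.236%) up, 64 (0.432%) down and 21 (0.142%) for a sex difference. Alternatives added after seeing the data varied the trend fit. It called 86 (0.581%) up and 125 (0.844%) down with female values only, 67 (0.466%) up and 105 (0.731%) down with both ages well above background, 5 (0.0338%) up and 8 (0.054%) down with no replicate block, and 1 (0.00675%) up and 3 (0.0203%) down with normexp and loess. When a female replicate was left out, calls ranged from 0 to 25 (0.169%) up and from 0 to 28 (0.189%) down over the fits with and without the trend. The cause of these differences was not tested. None of the 24 named genes changed sign with another normalization, single channels or both routes. The last of these holds the same values at a weight of 2/3. The naming rule required the same sign in both replicates, so leaving out a replicate or weighting by error could not change the sign. The other alternatives leave their values as they were. Of the 43 called genes with several tested probes, 40 had the same sign on all, and Apol10b, E2f7 and Nrxn3 did not. The number of arrays and the signal over background of dim probes both limit the precision.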

Other observations

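The genes given here were called down with the intensity trend, belong to no list and were picked after their values were seen, so that they stand for no gene group. Nop58 and Nop56, proteins of the box C/D particles that guide RNA methylation, had F4/F3 of -0.76 and -0.74, and of -0.65 and -0.62. Nolc1 had -0.61 and -0.73, and Gnl3, nucleostemin, had -0.67 and -0.66. In males the values were -0.46 and -0.46 for Nop58, -0.25 and -0.48 for Nop56, -0.23 and -0.37 for Nolc1 and -0.11 and -0.52 for Gnl3. Psat1, an enzyme of serine synthesis (-0.91 and -1.03), and Mthfd2, a mitochondrial enzyme of folate metabolism (-0.86 and -0.95), were called down beside Asns, and their F8/F4 were -1.37 and -1.28, and -1.56 and -1.06.

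Aacs, which activates acetoacetate for lipid synthesis, had -1.24 and -1.47 in females and -1.01 and -0.86 in males, and F8/F4 of 1.25 and 1.06, so that its lowest level was at 4 wk. Alas1, the first enzyme of heme synthesis, had -1.58 and -1.16 in females and -1.38 and -0.99 in males.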
